A study of Mus musculus with 2 samples.

Results

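The 3p arms of the mouse miRNAs numbered miR-6896 to miR-7094 were examined in ID-8 ovarian tumours on the Toray 3D-Gene miRNA array. The members were every 3p probe numbered from miR-6896-3p to miR-7094-3p, letter suffixes included, which gave 201 of the 1900 miRNA probes on the array. C57BL/6 mice aged 5 weeks were injected in the peritoneal cavity with ID-8 LUC2, a luciferase-carrying subline of a mouse ovarian cancer line, so both groups share the strain, the tumour line and the site. From day 14 to collection on day 42, the mice received control IgG or bevacizumab at 5 mg/kg, 2 times a week. Bevacizumab is an antibody raised to human VEGF-A that binds the mouse protein weakly. Total RNA labelled with Cy5 was hybridised to a single array per treatment. Whether an RNA came from 1 mouse or from a pool is not given in the labels, and the RNA is called tumour RNA in the design text and RNA from cells in the sample protocol. With 1 array per group the treatments could not be tested against each other, so no p-values appear and each difference is one between 2 arrays.

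Mirtrons are miRNAs whose hairpin is a short intron. The spliceosome cuts the hairpin out, and after debranching it folds and is cut by Dicer, without the Drosha step that releases most miRNA hairpins. The 3p arm of such a hairpin is the end of the intron, so it carries the pyrimidine-rich tract and ends at the AG of the 3′ splice site, and the 5p arm is the start of the intron. Tailed relatives, in which splicing makes only 1 end of the hairpin, also exist.

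The mature sequences had these features of an intron end. RefSeq (GRCm38.p6) gave a mature sequence for 177 of the 201 members, 18 to 25 bases long with a median of 22. Of the 177, 138 (78.0%) ended in AG and 120 (67.8%) in CAG, beside 11.2% and 5.62% of the 498 matched 3p probes outside the number range and 6.74% and 2.25% of the 178 matched 5p arms inside it. C and U together made up a median of 72.2% of the member sequences, against 54.5% in the other 3p probes and 31.8% in the 5p arms. C alone made up a median of 40.9% and G 14.3%, whereas in the 5p arms G made up 43.5%. Of 172 hairpins matched to members, 162 (94.2%) ended in AG, against 23.7% of all 1005 hairpins in the table, and 23 of the 172 began with GU, the start of an intron. The mature 3p arm reached the last base of the hairpin in 127 of 170 members with a position. All 175 members with a single locus lay within the bounds of a protein-coding gene, 152 of them on the strand of that gene; for the genes around the other 23 no strand was found.

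The sequences below, 5′ to 3′ with the seed (bases 2 to 8) in capitals, belong to the members on which the results turn. Those with a much lower signal on the bevacizumab array relative to other probes are shown before those that were bright and close to the median ratio, and those that were relatively higher come last.
miR-7056-3p: cCUCACCUgucucccaccacag
miR-7033-3p: uGCCUCCAuucucuugggcag
miR-7000-3p: cACCCACCugccuguccuccag
miR-7052-3p: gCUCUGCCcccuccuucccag
miR-6917-3p: gUCACUUCucuucccaccacag
miR-7045-3p: uCUCCCCCcucccccgcacag
miR-7082-3p: gCCCCCCUugcugucugucucc
miR-7028-3p: cCUUCUCUucccccucggccag
miR-7022-3p: aCAAGCCUgaccucugccccca
miR-7049-3p: uGCAGCCCcugucugccucag
miR-6901-3p: gACCUUCUguguucuugcag
miR-7038-3p: cACUGCUCcugccuucuuacag
miR-7030-3p: cUUGCUCUguuaucucuccag
All 5 of the first group and all 4 of the last end in AG, as do miR-7045-3p and miR-7028-3p; miR-7082-3p and miR-7022-3p do not. miR-7045-3p lies at chr6:125097066-125097086 on the plus strand, within the bounds of Chd4, which encodes a chromatin remodeller. miR-7052-3p lies at chr7:44470391-44470411 on the plus strand within Josd2, a deubiquitinase gene, and miR-7056-3p at chr7:47083166-47083187 on the minus strand within Ptpn5, a tyrosine phosphatase gene. miR-7000-3p lies at chr2:92387384-92387405 on the minus strand. miR-7033-3p lies within Pom121 (a nuclear pore protein), miR-7049-3p within Pak4 (a protein kinase), miR-7038-3p within Eif3b (a translation initiation factor) and miR-7030-3p within Rab35 (a small GTPase).

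Most of the 3p arms gave a weak signal on both arrays. Signals are spot intensities, in intensity units, from which the blank mean was subtracted. A probe was called detected above the blank mean plus 2 SD, that is at a signal over 1.66 units (control) or 8.06 units (bevacizumab). The blank spots exceeded these limits in 6.36% and 6.58% of cases. The control array detected 168 of the 201 members (83.6%), where 74.5% of all miRNA probes were detected, and the bevacizumab array 114 (56.7%), where 49.5% were. At 5 SD the counts were 142 (70.6%, where 61.7% of all probes passed) and 52 (25.9%, where 32.8% passed). The median member signal was 6.94 units (quartiles 3.56 and 13.2) for control IgG and 10.3 units (2.89 and 20.4) for bevacizumab. Only 3 members read above 100 units under control IgG and 5 under bevacizumab, against 37 and 61 of the 202 5p arms of the same numbers.

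Spots named No Probe on the array, whose content the labels and headers do not state, also read above the blanks. Their median was 4.26 units (range 0.639 to 13.6) for control IgG and 27.7 units (range 3.70 to 69.7) for bevacizumab, and 168 and 173 of these 174 spots passed the detection limits. On the control array 142 of the 201 members lay above that median (61.5% of all miRNA probes did). On the bevacizumab array 25 did (26.0% of all probes did), against 119 of the 202 5p arms. Above the mean plus 2 SD of the No Probe spots, a limit added after seeing the data, were 84 members on the control array (41.8%, where 46.0% of all probes were) and 10 on the bevacizumab array (4.98%, where 19.6% were). These 10 were miR-7000-3p, miR-7045-3p, miR-7052-3p, miR-7082-3p, miR-7028-3p, miR-7022-3p and, named after their values were seen, miR-6916-3p, miR-7087-3p, miR-7067-3p and miR-7025-3p.

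**Figure D1:**
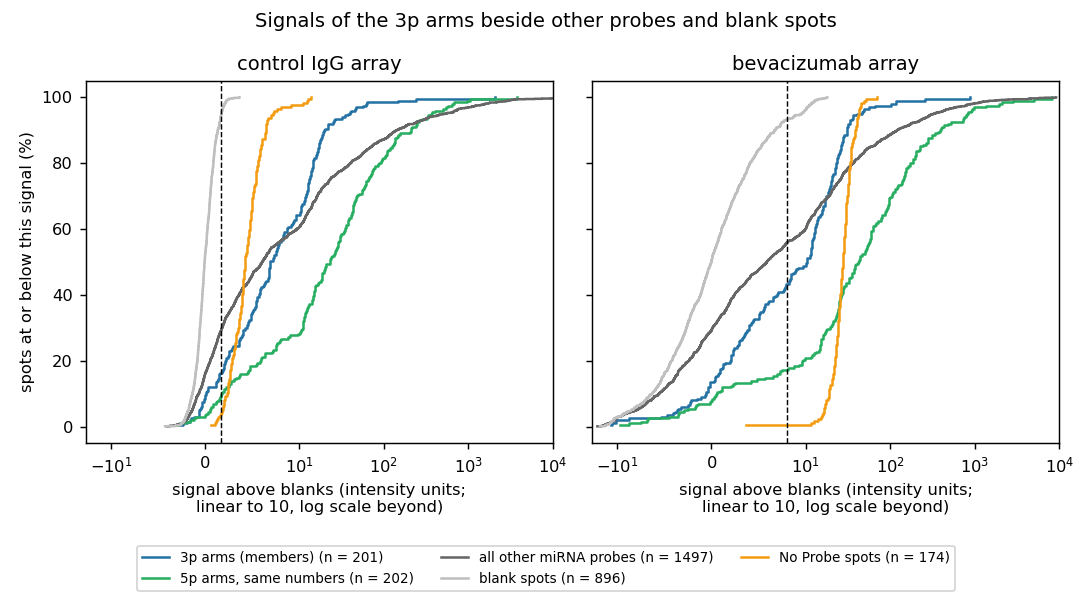
Cumulative share of spots (%) by signal above the blanks (intensity units, linear to 10 and log scale beyond) on the control IgG array (left) and the bevacizumab array (right), for the 201 3p arms, the 202 5p arms, the 1497 other miRNA probes, the blank spots and the No Probe spots; the dashed line is the detection limit. The 3p arms cross the No Probe curve on the control array, whereas on the bevacizumab array most of them lie to its left and only 25 exceed its median of 27.7 units.

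The highest signals came from 3 members. Errors are 1 SD of spot-to-spot error, which combines the SD of the blank spots (1.05 and 5.25 units) with the repeat-spot error of 5 control probes printed in 8 spots each (9.67% and 5.23% of the signal); they cover neither labelling nor animals. miR-7000-3p read 2046 ± 198 units with control IgG and 881 ± 46.4 with bevacizumab. miR-7052-3p read 240 ± 23.2 and 116 ± 8.04 units. miR-7045-3p read 148 ± 14.4 and 257 ± 14.4 units. The first 2 were thus lower on the bevacizumab array in plain intensity less the blank mean. miR-7045-3p was higher, and each difference exceeded the spot error. miR-7082-3p (57.2 ± 5.63 and 116 ± 8.04 units), miR-7028-3p (47.3 ± 4.70 and 103 ± 7.54) and miR-7022-3p (41.2 ± 4.12 and 67.0 ± 6.31) were also higher in plain intensity. Probes differ in how well they bind, so the order of these signals does not rank the miRNAs by abundance. At the edges of the number range, miR-6896-3p read 5.24 and 6.16 units and miR-7094-3p 6.85 and 5.44, and the nearest 3p probes outside it, miR-6769b-3p and miR-7115-3p, read 11.9 and 15.1 and 19.2 and 19.4 units.

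The intensity ratio of the members followed that of the array as a whole. Of the 201, 112 were detected on both arrays, and their median ratio of bevacizumab to control signal was 1.70; over all 917 miRNA probes detected on both it was 1.77. Ratios are therefore given as log2 of bevacizumab over control relative to that median (centred log2). The centred log2 of the 112 members had a median of -0.054 (quartiles -0.60 and 0.36), beside 0.28 for the 166 such 5p arms, -0.22 for the 229 such 3p probes outside the range and 0 for all probes by construction. The SD over members was 0.82, close to the 0.83 of the 5p arms and below the 1.60 of the 3p probes outside the range. The 112 include dim probes that passed only because they read high on the bevacizumab array. Large losses could be seen only in probes bright on the control array, and few members were, which limits the SD and the share of lower calls. At least 2-fold lower were 15 members (13.4%, where 22.8% of all probes were), and at least 2-fold higher were 8 (7.14%, where 9.92% were). Without centring 6 were lower (16.1% of all probes were) and 39 higher (40.7% were), and relative to the 5 control probes, which were 4.61-fold to 5.11-fold brighter with bevacizumab, 86 were lower (69.7% of all probes were) and 0 higher (0.545% were).

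**Figure D2:**
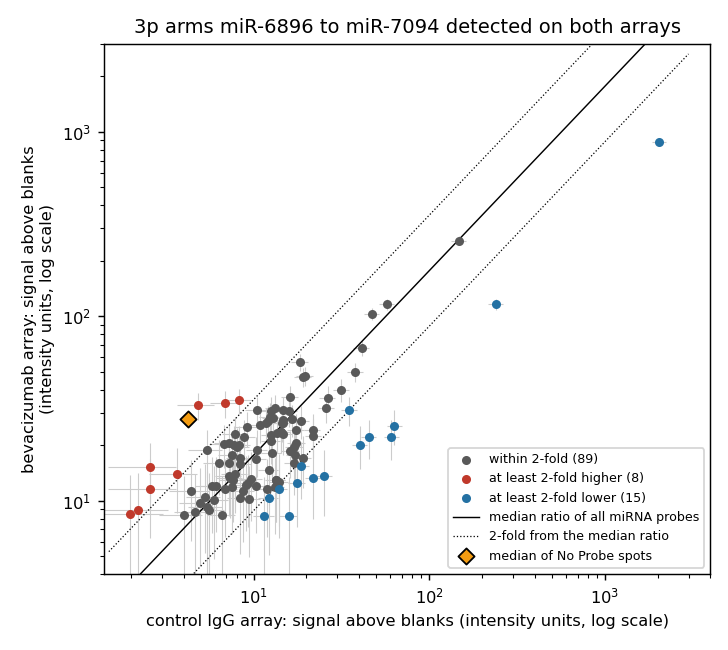
Signal above the blanks of the 112 members detected on both arrays (intensity units, log scales), control IgG array on the x axis and bevacizumab array on the y axis, with bars for 1 SD of spot error; the solid line is the median ratio of all miRNA probes and the dotted lines lie 2-fold to either side. The 15 relatively lower members sit at control signals of 11.5 units and more, and the 8 relatively higher ones at 8.31 units and less. Members dim on the control array could not be called lower, because the bevacizumab signal had to pass its detection limit. The diamond is the median of the No Probe spots.

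Lower relative to the other probes were the brighter members. miR-7056-3p read 61.0 ± 5.99 units with control IgG and 22.0 ± 5.38 with bevacizumab, a centred log2 of -2.29 ± 0.38, or 4.89-fold lower. miR-7033-3p read 63.5 ± 6.23 and 25.6 ± 5.42 units, a centred log2 of -2.13 ± 0.34. miR-7000-3p was at -2.04 ± 0.16 and miR-7052-3p at -1.86 ± 0.17. miR-6917-3p read 45.5 ± 4.52 and 22.2 ± 5.38 units (-1.86 ± 0.38) and miR-6970-3p 40.4 ± 4.04 and 20.2 ± 5.36 (-1.82 ± 0.41). All 6 were at least 2-fold lower in plain intensity less the blank mean as well. With local background subtracted instead, not all of them were lower in plain intensity. These 6 members were the ones that passed 2-fold lower by more than 2 spot errors (17.1% of all probes did). They stayed below 0 under every scaling tried, but with an offset of 50 and quantile normalization none reached 2-fold. Leaving out the centring, or scaling to the control probes, shifts every ratio by the same amount and could not have brought them above 0. Of the 6, the bevacizumab signals of miR-7056-3p, miR-7033-3p, miR-6917-3p and miR-6970-3p were below the No Probe median of 27.7 units. The other 9 of the 15, named after their values were seen, ran from miR-7050-3p (-1.77 ± 0.94) to miR-7046-3p (-1.002 ± 0.29).

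The 15 lower members had control signals from 11.5 to 2046 units. All 15 were below 0 without centring, which had to be so because centring shifts each log2 ratio by only 0.82. The local background of miR-7000-3p on the control array was 1864 units against a spot of 2119, and on the bevacizumab array it was 419 against 1066. Subtracting local background in place of the blank mean left a centred log2 of -0.31 for miR-7000-3p, -1.28 for miR-6917-3p and -1.48 for miR-6970-3p. It left -2.72 for miR-7056-3p, -2.20 for miR-7033-3p and -2.19 for miR-7052-3p. The spots of miR-6917-3p read 118 and 207 units over local backgrounds of 87.1 and 167. Those of miR-6970-3p read 113 and 205 over 77.1 and 164. In both and in miR-7000-3p, plain intensity less local background was thus higher on the bevacizumab array, not lower.

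Higher relative to the other probes were dim members. miR-7049-3p read 4.84 ± 1.15 units with control IgG and 33.1 ± 5.53 with bevacizumab, a centred log2 of 1.95 ± 0.42. miR-6901-3p read 6.91 ± 1.24 and 33.7 ± 5.54 units (1.47 ± 0.35). miR-7038-3p read 8.31 ± 1.32 and 35.0 ± 5.56 units (1.25 ± 0.32). The signals of these 3 lay within the range of the No Probe spots on both arrays, and the No Probe medians themselves stood at a centred log2 of 1.88. miR-7030-3p (2.56 ± 1.08 and 15.2 ± 5.31 units, 1.75 ± 0.79), miR-6986-3p (1.36 ± 0.90) and miR-6993-3p (1.28 ± 1.19) were dimmer still on the control array. Members that dim had a ratio only if their bevacizumab signal passed the limit of 8.06 units, so their ratios could only lie above the median. No bevacizumab signal among the 8 exceeded the highest No Probe spot. Relative to the control probes miR-7049-3p, miR-7030-3p and miR-6901-3p stayed above 0 (log2 0.54, 0.33 and 0.049) and the other 5 of the 8 were below it. With local background subtracted miR-7049-3p had no positive bevacizumab signal, its spot of 218 units lying under a local background of 221, and so no ratio. In that setting miR-6901-3p stood at 0.17, miR-7030-3p at 0.23 and miR-7038-3p at -0.36. Only miR-7049-3p passed 2-fold higher by more than 2 spot errors (1.42% of all probes did).

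The ratio differed with brightness in the members as in the other probes. Among members with a control signal over 20 units, 19 of 20 were also detected on the bevacizumab array, with a median centred log2 of -0.78 and 9 at least 2-fold lower. Of the 402 other miRNA probes in that band, outside the number range, 357 were detected on both arrays. These 357 had a median of -0.89, and 166 of them were at least 2-fold lower. The 106 5p arms in the band had a median of 0.25, with 9 lower and 11 higher. Between 10 and 20 units the members' median was -0.11 and 6 of 48 were lower, beside -0.13 and 18 of 141 in the other miRNA probes. Between 5 and 10 units 35 of 60 members were also detected on the bevacizumab array, with a median of 0.16. For the other probes it was 95 of 218, with a median of 0.17. Below 5 units 10 of 36 members were, with a median of 1.16, beside 46 of 255 other probes with a median of 0.98. A dim probe could pass the bevacizumab limit only with a high ratio.

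**Figure D3:**
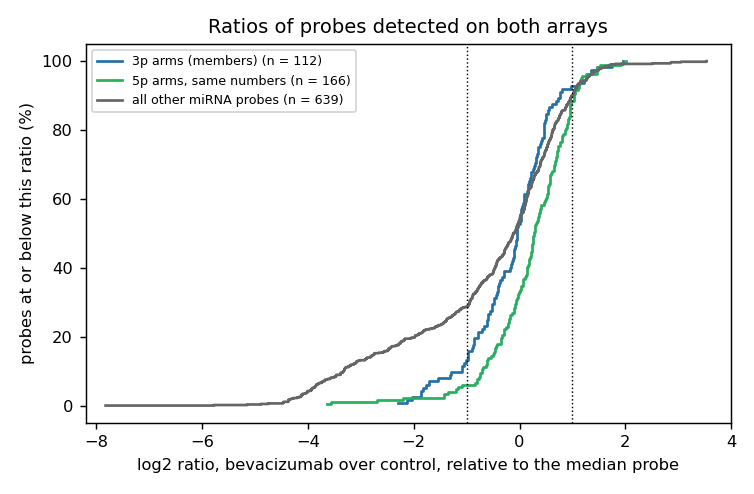
Cumulative share (%) of probes detected on both arrays by centred log2 ratio of bevacizumab over control, for 112 members, 166 5p arms and 639 other miRNA probes; dotted lines mark 2-fold. The member curve lies close to that of the other probes above 0 and lacks its long lower tail: the lowest member stood at -2.29 and the lowest other probe at -7.82. A ratio that low could be seen only in a probe bright on the control array. There 3 of the 201 members read above 100 units, against 191 of the 1497 other miRNA probes.

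On a single array, 56 members were detected on the control array alone (27.9%, where 26.3% of all probes were) and 2 on the bevacizumab array alone (where 1.21% were). The 56 had a median control signal of 5.15 units, and for 7 of them the relative loss had a lower bound of 2-fold or more (22.6% of all 499 probes seen on the control array alone had such a bound), set against the lowest detected signal or the probe's own, whichever was higher. miR-7076-3p read 20.3 ± 2.22 units with control IgG and 3.94 ± 5.26 with bevacizumab, at least 4.42-fold lower. miR-7089-3p read 15.0 ± 1.79 and 4.01 ± 5.26 units, at least 3.26-fold lower. miR-7002-3p, miR-7005-3p and miR-6944-3p were at least 2.47-fold, 2.31-fold and 2.28-fold lower. These bounds, and the counts of bounds above, leave out the spot error, which was 5.26 units with bevacizumab for miR-7076-3p. Smaller losses are therefore possible. miR-7002-3p (uUGUGCUUccccuugccag) shares its seed with miR-218-5p, a miRNA known from motor neurons. Of the pair seen on the bevacizumab array alone, miR-6988-3p (uGACCUCUguaucuccugccag) read 1.48 ± 1.06 and 17.1 ± 5.33 units and miR-6910-3p 1.42 ± 1.06 and 8.37 ± 5.27. Their control signals were just under the limit of 1.66 units and their bevacizumab signals under the No Probe median, so their bounds of 5.84-fold and 2.85-fold rest on spots close to the detection limit.

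Both arms of 200 hairpins were on the array. On the control array both arms were detected for 156 hairpins, the 3p arm alone for 11 and the 5p arm alone for 26. On the bevacizumab array both were detected for 100, the 3p arm alone for 14 and the 5p arm alone for 67. Among the 97 hairpins with both arms detected on both arrays, the median centred log2 was -0.066 for the 3p arms and 0.24 for the 5p arms, and the 5p arm had the higher ratio in 62. The ratios of the arms had a Pearson correlation of 0.059 and a Spearman correlation of 0.067 across these 97 hairpins, which share both arrays and are not independent replicates.

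The 6 members with the lowest ratios had 5p arms above the median ratio. So had most of the 166 5p arms with a ratio (median 0.28, quartiles -0.19 and 0.73). The 5p arm of miR-7056 stood at a centred log2 of 0.14 ± 0.18, that of miR-7033 at 0.35 ± 0.16 and that of miR-7052 at 0.88 ± 0.16, while their 3p arms stood between -2.29 and -1.86. The 5p arm of miR-6917 stood at 0.93 ± 0.16, that of miR-6970 at 0.65 ± 0.16 and that of miR-7000, dim at 7.55 and 14.8 units, at 0.15 ± 0.57. miR-6995 and miR-7046, named after their values were seen, were the 2 hairpins with both arms at least 2-fold lower, and no hairpin had both arms at least 2-fold higher. In miR-7063, also named so, the 3p arm was 2-fold lower (-1.09 ± 0.52) and the 5p arm 2-fold higher (1.05 ± 0.16). Both ratios lay within their spot error of the 2-fold line, and with local background subtracted the 3p arm of miR-7063 stood at 0.44. miR-7005-5p, whose signals of 3708 and 8053 units were the highest among the 5p arms, had a 3p partner that read 10.6 units on the control array and was not detected on the bevacizumab array.

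**Figure D4:**
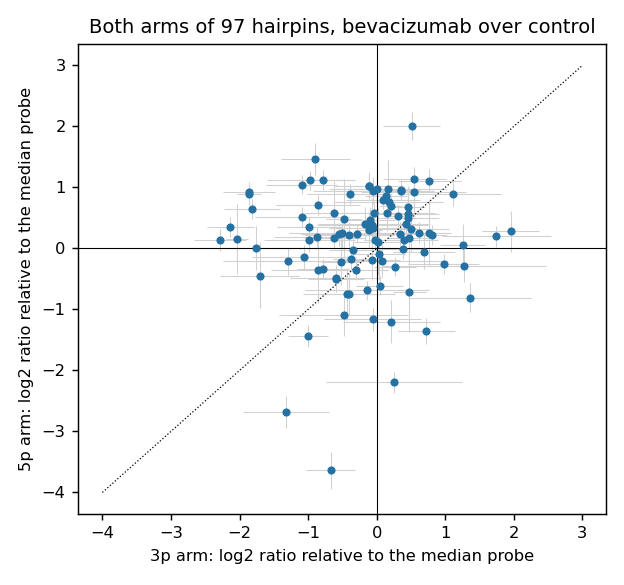
Centred log2 ratio of bevacizumab over control for the 3p arm (x axis) and the 5p arm (y axis) of 97 hairpins with both arms detected on both arrays; bars are 1 SD of spot error and the dotted line marks equal ratios. The points form no line, and 62 of 97 lie above the dotted line.

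Detection was more frequent in members rich in G and C. Of 61 members with 27.3% to 52.2% G+C, 67.2% were detected with control IgG and 31.1% with bevacizumab. Of 57 members with 52.4% to 59.1% G+C, 91.2% and 63.2% were, and of 59 with more, 93.2% and 78.0% were. Other miRNA probes outside the range showed the same order at the same bounds, with 59.8%, 80.4% and 91.0% for control IgG and 26.03%, 51.6% and 82.7% for bevacizumab. The median centred log2 of the members was 0.15, 0.000 and -0.15 from low to high G+C, and across the 99 members with a sequence and a ratio it had a Pearson correlation of -0.17 and a Spearman correlation of -0.16 with G+C content. In the 5p arms of the same numbers the median was also highest at low G+C, at 0.67 against 0.23 in both other groups. In the other probes it ran the opposite way, from -1.44 through -0.17 to 0.12. Members that ended in AG were detected in 85.5% of cases with control IgG and 59.4% with bevacizumab, and those that did not in 76.9% and 48.7%. The 8 relatively higher members all ended in AG, as did 12 of the 13 lower members with a sequence, where 81 of all 99 members with a sequence and a ratio did (81.8%).

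**Figure D5:**
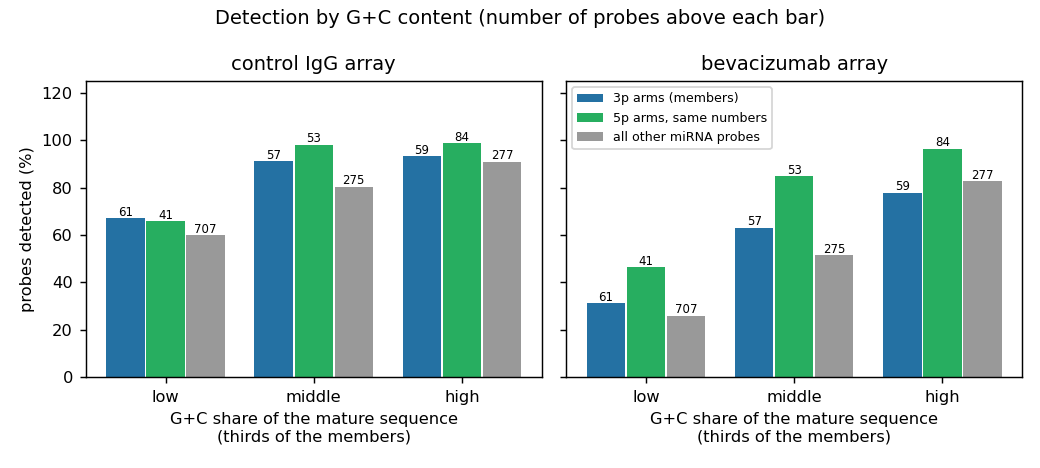
Share of probes detected (%) on the control IgG array (left) and the bevacizumab array (right) by G+C content (low, middle and high), for the members, the 5p arms of the same numbers and all other miRNA probes at the same bounds, with the number of probes above each bar. In each of the 3 sets and on both arrays the low group has the lowest share; on the bevacizumab array it was 31.1% of the members, 46.3% of the 5p arms and 26.03% of the other probes.

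Seeds were seldom shared. The 177 sequences held 169 distinct seeds, of which 7 occurred in more than 1 member, and 15 members shared a seed with a mature miRNA outside the set. Members of a seed group are shown in pairs or threes because a common seed would give them common predicted targets.
miR-6927-3p: cCUGAGCUggcuccccugcag
miR-6945-3p: uCUGAGCUcugcccuucccau
miR-6932-3p: uCUGUUCUgcuuccucugcag
miR-7039-3p: cCUGUUCUgcccucccuuccag
miR-6973b-3p: uGCUCUCUuacccuuccuag
miR-7063-3p: uGCUCUCUgccccucuuaag
miR-7018-3p: uCACCCUGcugccggcuugcag
miR-7023-3p: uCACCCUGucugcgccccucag
miR-7068-3p: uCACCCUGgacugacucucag
miR-6927-3p read 25.2 ± 2.65 and 13.6 ± 5.30 units (centred log2 -1.71 ± 0.58), and miR-6945-3p 5.84 ± 1.19 and 11.9 ± 5.29 (0.21 ± 0.70). miR-7039-3p, which has the seed of miR-26b-3p and miR-26a-2-3p, read 17.1 ± 1.96 and 19.6 ± 5.35 units (-0.62 ± 0.43), and miR-6932-3p with the same seed was detected on the control array alone, at 4.53 units. miR-6973b-3p was also detected on the control array alone (5.79 units). In the group of 3, miR-7023-3p was detected on both arrays (17.5 ± 1.99 and 20.5 ± 5.36 units, -0.59 ± 0.41), miR-7068-3p on the control array alone (3.56 units) and miR-7018-3p on neither. No seed group had 2 members past 2-fold in the same direction. Among the groups shown, only miR-6927-3p and miR-6945-3p both had a ratio, so the other groups shown could not have.

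Other intron-derived miRNAs outside the number range gave mixed ratios. miR-702-3p read 40.02 and 27.4 units, a centred log2 of -1.37 ± 0.32. miR-877-3p stood at -0.48 ± 0.90 and miR-1224-3p at -0.015 ± 0.40. The 5p arms of miR-877, miR-1224 and miR-702 stood at 0.79 ± 0.35, 0.43 ± 0.16 and -0.21 ± 0.39. Cell type markers, apart from that of liver, were lower on the bevacizumab array, whereas the median ratio of all probes was above 1: of 16 marker miRNAs for epithelium, endothelium, mural cells, leukocytes, erythroid cells, striated muscle and liver, 15 were detected with control IgG and 8 with bevacizumab. The 5 epithelial markers summed to 549 and 22.1 units, the 2 mural markers to 2757 and 270.4, and the liver marker miR-122-5p was at blank level on both. In bulk RNA fewer cells of a type and less miRNA per cell cannot be told apart. With 1 array per group, neither can be told apart from a difference between the arrays in RNA or labelling. The part of these markers in the ratios of the 3p arms was not tested.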

How the data were processed

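Per the file headers, the deposited scanner files give each spot's median intensity and local background intensity, with 3 scan gains related by least squares. These intensities are linear, neither background-corrected nor normalized. The authors' deposited value table is also linear intensity; set against the scanner values it was the spot less the blank mean, divided by 0.505 (control) or 1.22 (bevacizumab) (largest departure 0.0512), which gave listed miRNAs a median of 25. The software was not given in the sources used.

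Each array has 3200 spots, 896 of them blank, and 1 spot per member; that number and the single array per group limit the precision. The blank mean (72.8 and 185 units) and SD (0.828 and 4.03) leave out the highest and lowest 5% of blanks. Ratios used the blank mean and the median of all probes detected on both arrays. This replaces limma's normexp with an offset of 50, which exceeds most member signals and is an alternative (limma 3.58.1 in R 4.3.3; other steps in Python 3.11.15 with numpy 2.4.6 and pandas 2.3.3). The ratio step was tested on simulated data. Sequences and hosts come from RefSeq tables (GRCm38.p6), matched by name; the 24 members without an entry are unmatched. Members, lists and settings were chosen with earlier results of these data known. Named are the 6 brightest members of each array, the 6 highest and 6 lowest ratios, the 5 brightest seen on a single array (only 2 on the bevacizumab array) and members of the first 4 seed groups; others were named after their values were seen.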

Additional observations from a re-analysis of the deposited data

Results flagged for a closer look

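The local background around spots, which the ratios do not use, was raised at some 3p arms. On the control array 33 of the 201 members had a local background above the highest of any blank spot (74.2 units), and on the bevacizumab array 11 did (195 units). The highest was at miR-7000-3p on the control array, at 1864 units, where the spot itself read 2119. The count was not made for the other miRNA probes, so a raised local background is not shown to be particular to the 3p arms. No other result was picked out, since a single array per group leaves no spread between samples to compare.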

How the results depend on the processing

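The number of members detected on the control array was 168; it was 84 above the No Probe limit, added after seeing the data. The number on the bevacizumab array was 114, with 52 at a limit of 5 SD and 10 above the No Probe limit. Of 112 members, 8 were 2-fold higher and 15 lower (9.92% and 22.8% of all probes). The numbers were 39 and 6 without centring (40.7% and 16.1%), 0 and 0 with normexp, offset 50 and quantile normalization (10.5% and 11.5%), 24 and 7 with an offset of 0 (33.0% and 17.1%), 0 and 3 with cyclic loess (6.65% and 14.1%), 0 and 86 with spike scaling (0.545% and 69.7%) and 3 and 31 in the deposited table (2.94% and 32.5%). Other settings test other members: local background gave 5 and 26 of 196 (7.38% and 14.3%), 5 SD 3 and 7 of 52 (6.32% and 23.5%) and the No Probe limit 0 and 2 of 10 (4.32% and 27.6%). The members' median of -0.054 became 0.77 without centring, 0.52 with an offset of 0, -1.47 with spike scaling and -0.50 in the deposited table, where the medians of all probes were 0.82, 0.60, -1.42 and -0.45. It was 0.0995 with an offset of 50 and quantile normalization and 0.037 with cyclic loess, where all probes had 0.14 and 0.046. With local background, 5 SD and the No Probe limit it was -0.12, -0.068 and -0.12, where all probes stood at 0 by centring. These shifts of the members' median were below 0.16, the repeat-spot SD of a single log2 difference, which does not measure the spread of a median. An offset of 50 compresses dim signals by construction; other causes were not tested. Of 145 values of 21 named members under alternatives, 74 stayed the same and 65 moved, for example by losing a 2-fold call. The other 6 changed sign after a 2-fold call, which members without such a call could not do. With spike scaling miR-6986-3p, miR-6993-3p and miR-7038-3p were at -0.062, -0.14 and -0.16. With local background miR-7049-3p had no ratio, and miR-6986-3p, miR-7038-3p and miR-7063-3p were at -0.39, -0.36 and 0.44. The bevacizumab array's wider blank spread limits what could be detected there. No paired analysis was possible because each group has 1 array.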
